A study of Homo sapiens with 24 samples.

Results

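RNA levels of 10 glycosyltransferase genes of the globo and lacto series of glycosphingolipids, A4GALT, B3GNT5, B3GNT2, B3GNT3, B4GALT1, B4GALT4, B3GALT5, FUT1, FUT2 and FUT3, were followed across the samples. They were chosen by symbol from a count table of 33113 genes, with the results of the untreated comparison of the lines known, and all 10 are among the 19452 genes with a count in any sample. The samples were HCT116 cells, an established human colorectal cancer line, and HCT116 oxpl-R cells, a line derived from them by repeated short exposures to oxaliplatin, a platinum drug that damages DNA. The groups of each line were untreated cells (control), cells exposed to oxaliplatin at 25 µM over 24 h (oxaliplatin), cells with doxycycline at 0.5 µg/mL (E1A), and cells that received doxycycline 3 h ahead of oxaliplatin (E1A + oxaliplatin), with 3 biological replicates per group and 24 samples in all. Every group, the untreated controls included, is labelled with the genotype TetOn-E1A, an adenovirus E1A transgene that doxycycline switches on, and no doxycycline-treated cells without the transgene were analysed here, so E1A and doxycycline itself cannot be told apart. E1A is not a human gene and has no row in the tables used here, so its induction was not checked, and E1A in a group's name stands for doxycycline treatment. HCT116 oxpl-R is 1 derived line, which the study's karyotypes describe as hypotetraploid and mixed in chromosome number, so a difference between the lines is a difference between these cell populations.

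Glycosphingolipids are sugar chains built on ceramide in the Golgi, and the first branch point is lactosylceramide. A4GALT adds an alpha-linked galactose to it and opens the globo series, whose first product is the Shiga toxin receptor, while B3GNT5 adds N-acetylglucosamine and opens the lacto and neolacto series. The lacto chains are then lengthened by N-acetylglucosaminyl- and galactosyltransferases and capped with fucose into H and Lewis antigens, structures that are well known from the intestinal epithelium and from colorectal tumours.

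A4GALT and B3GALT5 had the largest differences between the lines among the members and the highest correlation of any pair over all samples, so the sequence just ahead of their transcription starts is shown. The windows are the 250 bases upstream of each start in RefSeq on GRCh38.p14, written 5′ to 3′ on the gene's strand. Capitals mark the GC box, which reads GGGCGG, on either strand. They also mark the CCAAT box by its own letters, and the TATA box, searched as TATAAA, again on either strand.
A4GALT window 1, chr22:42720871-42721120, minus strand: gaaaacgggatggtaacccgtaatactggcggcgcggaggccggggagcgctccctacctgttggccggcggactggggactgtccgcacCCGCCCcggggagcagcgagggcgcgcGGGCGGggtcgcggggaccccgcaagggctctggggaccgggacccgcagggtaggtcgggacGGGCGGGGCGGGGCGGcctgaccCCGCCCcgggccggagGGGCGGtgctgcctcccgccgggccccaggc
A4GALT window 2, chr22:42721302-42721551, minus strand: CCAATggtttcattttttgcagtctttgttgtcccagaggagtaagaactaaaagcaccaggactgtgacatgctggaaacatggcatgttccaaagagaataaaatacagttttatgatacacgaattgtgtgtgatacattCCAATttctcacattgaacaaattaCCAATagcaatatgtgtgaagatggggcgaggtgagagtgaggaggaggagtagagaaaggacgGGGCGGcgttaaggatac
B3GALT5 window 1, chr21:39612690-39612939, plus strand: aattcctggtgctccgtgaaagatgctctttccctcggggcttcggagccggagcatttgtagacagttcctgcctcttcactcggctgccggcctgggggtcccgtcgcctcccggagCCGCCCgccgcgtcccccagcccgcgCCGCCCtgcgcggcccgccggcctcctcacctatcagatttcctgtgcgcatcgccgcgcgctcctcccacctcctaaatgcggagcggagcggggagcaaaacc
B3GALT5 window 2, chr21:39642146-39642395, plus strand: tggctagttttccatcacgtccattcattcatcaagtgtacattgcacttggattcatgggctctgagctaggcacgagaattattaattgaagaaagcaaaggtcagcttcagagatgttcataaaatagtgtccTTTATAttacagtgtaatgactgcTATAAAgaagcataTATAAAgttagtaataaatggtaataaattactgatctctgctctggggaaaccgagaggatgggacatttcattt

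The upstream windows of A4GALT held 7 and 1 GC boxes, and window 2 also held 3 CCAAT boxes. B3GALT5 window 1 held 2 GC boxes, and window 2, with a GC content of 36.4%, held 3 TATA boxes and no GC box. All 10 members had an entry, with 15 windows between them, and a GC box was found in 12 of these windows against 42.6% of all 35116 windows. Most member windows also lay above the median GC content of all windows, 58%, and B4GALT1 window 1 reached 80%. The part of base composition in the GC box count was not tested. FUT1 window 2 lay in exon sequence over all its 250 bases. A CCAAT box was found in 3 member windows against 32% of all windows, and a TATA box in 1 against 10.7%. Neither the AP-1 site (TGANTCA) nor the E-box (CACGTG), present in 6.57% and 6.34% of all windows, was found in a member window. These are matches of letters, overlapping matches were counted separately, and windows of 1 gene can overlap.

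The count totals ran from 24838095 to 37927720 per sample, and the lowest count of any member in any sample was 21. Epithelial markers summed to between 5370 and 16700 CPM, a count rescaled so that all samples have the same total, in every sample, those of leukocytes to at most 1.05 and those of endothelium to at most 0.911, while the fibroblast list held 14.3 to 41.3, most of it COL1A1, with DCN at no more than 0.0954. PECAM1 and KDR of the endothelial list were called once each, PECAM1 between the lines with E1A (1, 1 and 0 counts in HCT116 and 10, 8 and 13 in HCT116 oxpl-R) and KDR for E1A + oxaliplatin against E1A in HCT116 (0, 0 and 0 against 5, 5 and 3 counts). The mean correlation of a sample with the others of its group was at least 0.966. In replicates 1 and 3 of HCT116 oxpl-R treated with oxaliplatin, 30.4% and 25.3% of the counts were not whole numbers, against at most 20.8% in the other 22 samples, and the differences between the lines under oxaliplatin that rest on this group are also given without each of them. Values below are normalized counts, that is counts scaled to a common library size, and they compare samples and not genes, since they are not divided by transcript length. In RNA of whole cultures, fewer expressing cells and less RNA per cell cannot be told apart.

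**Figure D1:**
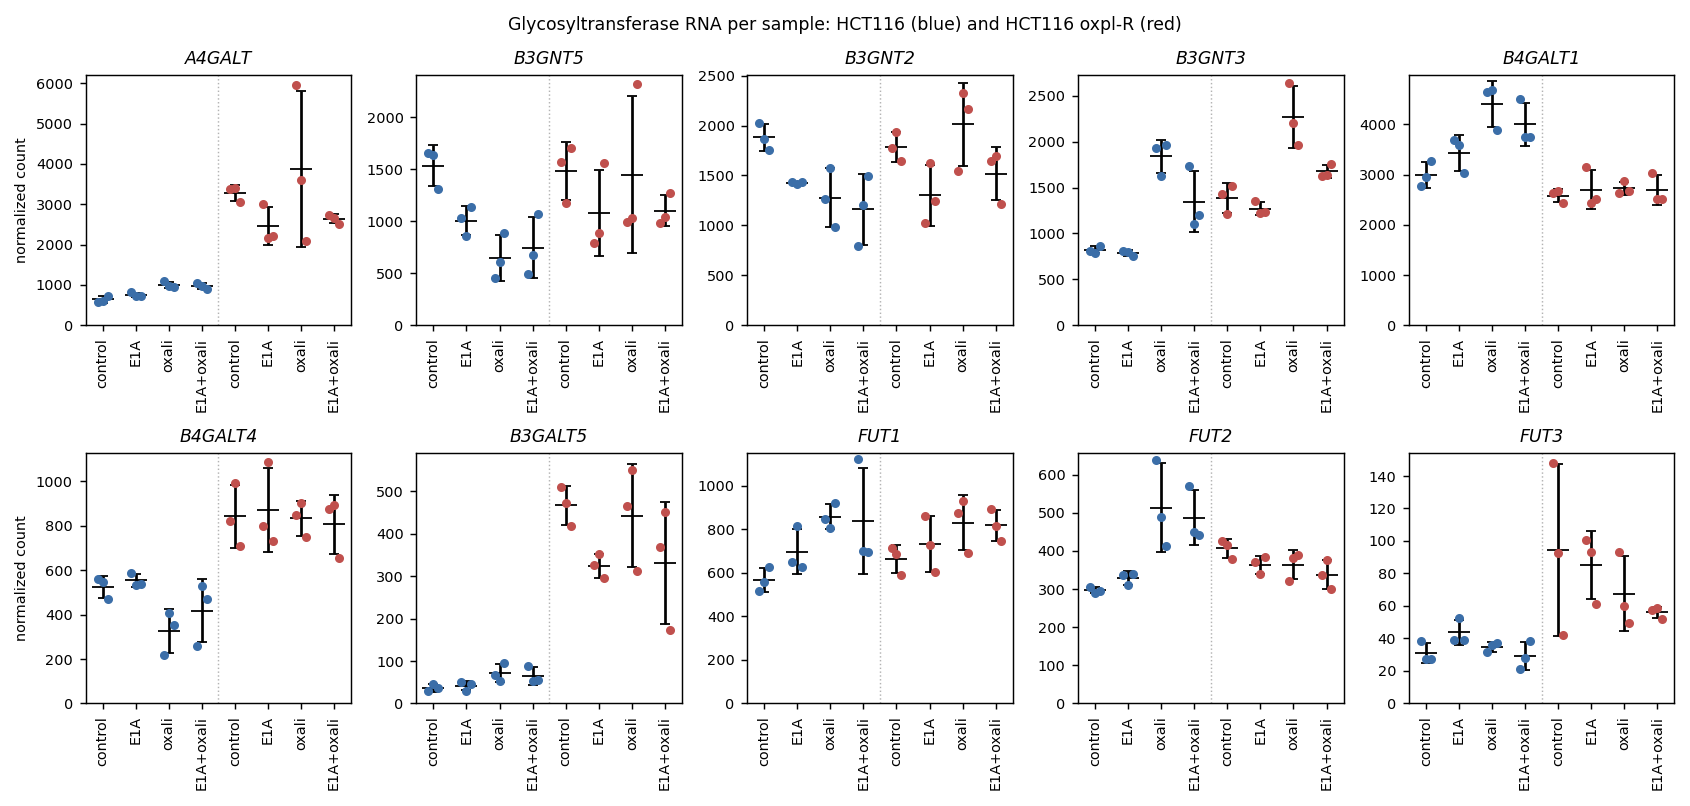
Normalized counts of the 10 members (linear axes from 0, one panel per gene) in the 8 groups; each point is 1 sample, the horizontal bar is the mean and the whisker the SD (n = 3). HCT116 is blue and HCT116 oxpl-R red; the 12 red points of A4GALT lie between 2088 and 5947, above the 12 blue points, which reach 1088.

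A4GALT, the synthase of the globo series, lies on chromosome 22 (GRCh38, 42692121 to 42721298, minus strand). In untreated HCT116 its 3 samples had 586, 594 and 735 normalized counts (638 ± 84.0, SD, n = 3), and in untreated HCT116 oxpl-R 3379, 3406 and 3057 (3281 ± 194). The groups lay far apart, with a log2 fold change (log2FC) of 2.36 ± 0.23 (SE). The members were proposed with results of this untreated contrast known, so it is given here as a description with no test.

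Treated samples are separate libraries, in which the difference between the lines could be tested. They come from the same lines, so a lasting difference known when the members were proposed can carry into them. Under oxaliplatin A4GALT had 1088, 978 and 943 normalized counts in HCT116 and 5947, 3591 and 2088 in HCT116 oxpl-R. No sample of the resistant line fell to the level of the parental line, although its own samples spread widely (3875 ± 1940). A4GALT was higher in HCT116 oxpl-R by a log2FC of 1.95 ± 0.23 (edgeR quasi-likelihood test, Benjamini-Hochberg adjusted p = 1e-07). Without replicate 1 of HCT116 oxpl-R oxaliplatin the log2FC was 1.5 ± 0.19, and without replicate 3 it was 2.18 ± 0.19. With E1A the groups held 818, 719.8 and 713 against 3014, 2164 and 2209 normalized counts. The log2FC was 1.71 ± 0.23 (edgeR adjusted p = 2.36e-06). With E1A + oxaliplatin they held 1035, 969 and 901 against 2743, 2659 and 2521. The log2FC was 1.45 ± 0.23 (edgeR adjusted p = 1.89e-05), and A4GALT was called in each of the 14 or 15 alternative analyses of the 3 treated comparisons.

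B3GALT5, on chromosome 21 (39556442 to 39673137, plus strand), adds the galactose that makes a type 1 chain, the backbone of Lewis a and of the tumour marker CA19-9. Untreated HCT116 had 28.4, 45.2 and 35.5 normalized counts (36.4 ± 8.45) and untreated HCT116 oxpl-R 509, 472 and 417 (466 ± 46.5). The gene was low but counted in every parental sample, and the untreated log2FC was 3.68 ± 0.34, given without a test. On the second, length-scaled table the same log2FC was 4.42 ± 0.44.

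After oxaliplatin B3GALT5 had 68.2, 54.1 and 95.15 normalized counts in HCT116 and 466, 550.3 and 311 in HCT116 oxpl-R. The groups did not overlap, and the log2FC was 2.60 ± 0.32 (edgeR adjusted p = 1.63e-07), or 2.57 ± 0.34 without replicate 1 and 2.73 ± 0.33 without replicate 3 of HCT116 oxpl-R oxaliplatin. With E1A, values of 51.6, 30.5 and 45 stood against 325, 352 and 295, a log2FC of 2.93 ± 0.33 (edgeR adjusted p = 9.37e-08). With E1A + oxaliplatin, values of 89.1, 52 and 54.3 stood against 369, 450.0 and 172, a log2FC of 2.34 ± 0.32 (edgeR adjusted p = 1.93e-06). The highest parental sample of all 12, at 95.15, lay below the lowest resistant sample, at 172.2.

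Ordered by group mean, A4GALT stood highest in HCT116 oxpl-R with oxaliplatin, followed by the same line untreated, with E1A + oxaliplatin and with E1A, then by HCT116 with oxaliplatin, with E1A + oxaliplatin, with E1A and untreated. Neighbouring groups in that order overlapped except at 3 places, between untreated and E1A + oxaliplatin in HCT116 oxpl-R, between the lines, and between E1A + oxaliplatin and E1A in HCT116. B3GALT5 had the same order but for untreated HCT116 oxpl-R, which stood first, and its neighbours were separate at 2 places, between the lines and between E1A + oxaliplatin and E1A in HCT116. The highest group mean was 12.8 times the lowest for B3GALT5, 6.07 times for A4GALT and 3.22 times for FUT3, and between 1.51 (FUT1) and 2.88 (B3GNT3) times for the other members.

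**Figure D2:**
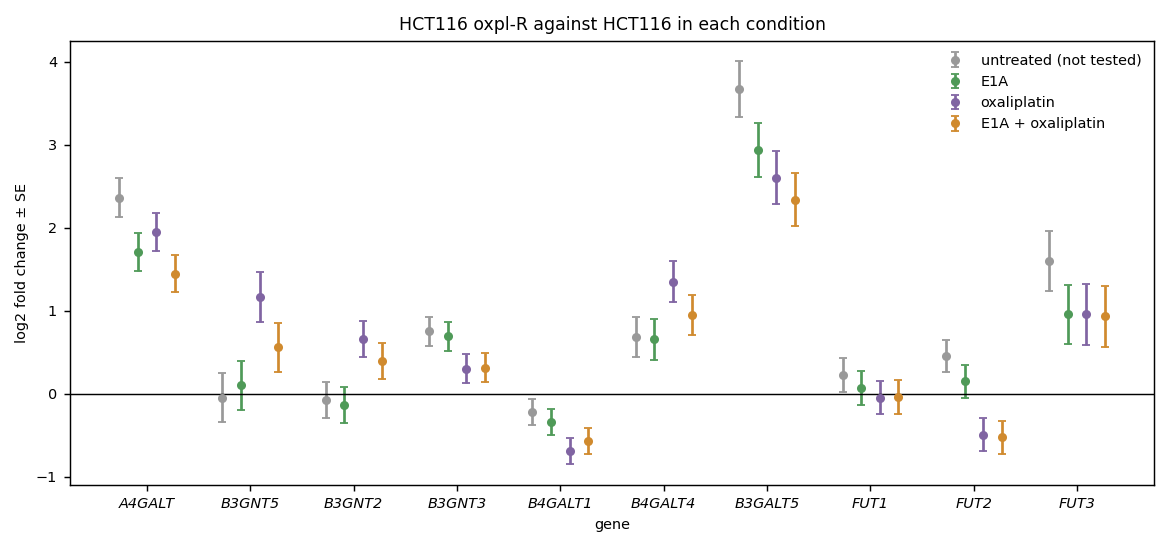
Log2 fold change (± SE) of HCT116 oxpl-R against HCT116 for each member, untreated (grey, shown without a test), with E1A, with oxaliplatin and with both (n = 3 per group). B3GALT5 lies between 2.34 and 3.68 and A4GALT between 1.45 and 2.36, while B4GALT1 lies below 0 in every condition.

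Under oxaliplatin 6 of the 10 members were called between the lines, 5 higher and 1 lower in HCT116 oxpl-R, beside 25.6% of the 19452 genes tested (13.7% higher and 12% lower). With E1A 3 members were called, all higher, beside 14.4% of genes (6.69% higher and 7.75% lower), and with E1A + oxaliplatin 4 were called, 3 higher and 1 lower, beside 19.3% (10.3% higher and 8.92% lower). Separation of all 3 samples of a line from those of the other was seen in 8, 5 and 6 members in this order, beside 30.2%, 29.6% and 31.3% of genes. The median log2FC of the members was 0.81, 0.40 and 0.47 in these comparisons, and that of all genes tested was 0.0 in each. Over expressed genes, with at least 10 counts on average, it was 0.085, −0.0539 and 0.0481. The genes tested include those with few counts, which can hardly be called, whereas no member had fewer than 21 in any sample. Shares of all genes, here and below, are therefore lower than for genes counted like the members, for which no share is given. In the untreated contrast, 7 of the 10 members had no overlap between the lines, as did 35% of the genes tested, and nothing is read from that count, since this contrast was known when the members were proposed. In that contrast 14.1% of genes were called. These 4 comparisons share no sample, but they share both lines. The member counts and medians of the treated comparisons are therefore not free of the choice of members.

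B3GNT5, on chromosome 3 (183253253 to 183298504, plus strand), starts the lacto and neolacto chains. Under oxaliplatin it had 449, 603 and 881 normalized counts in HCT116 and 990.4, 1027 and 2315 in HCT116 oxpl-R, with no overlap. The log2FC was 1.16 ± 0.30 (edgeR adjusted p = 0.00389). This difference rested partly on single samples, since without replicate 3 of HCT116 oxpl-R oxaliplatin, the sample at 2315, the log2FC was 0.57 ± 0.29 (edgeR adjusted p = 0.194), and without replicate 1 of HCT116 oxaliplatin it was 0.90 ± 0.33 (edgeR adjusted p = 0.0507). Without replicate 1 of HCT116 oxpl-R oxaliplatin it was 1.37 ± 0.32 (edgeR adjusted p = 0.00154). In the untreated cells B3GNT5 had means of 1533 ± 195 and 1483 ± 277, and the samples overlapped. With E1A + oxaliplatin the line log2FC was 0.56 ± 0.30 (edgeR adjusted p = 0.224).

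B3GNT2, the main enzyme that extends polylactosamine, is encoded on chromosome 2 (62196115 to 62224731, plus strand). Under oxaliplatin it had 1263, 1576 and 988 normalized counts in HCT116 and 1541, 2328 and 2169 in HCT116 oxpl-R, and the lowest resistant sample lay below the highest parental one. The log2FC was 0.66 ± 0.22 (edgeR adjusted p = 0.023). It was called in 8 of 15 alternative analyses and lost when any of 4 libraries was left out, replicate 1 or 3 of HCT116 oxaliplatin or replicate 2 or 3 of HCT116 oxpl-R oxaliplatin (edgeR adjusted p between 0.0949 and 0.167). Without replicate 1 of HCT116 oxpl-R oxaliplatin the log2FC was 0.82 ± 0.23 (edgeR adjusted p = 0.00689), and without replicate 3 it was 0.53 ± 0.23. Same-numbered samples of these 2 groups deviated together weakly (r = 0.141, 0.188 and 0.253). With the replicate as a block the edgeR adjusted p was 0.0156 in the fit of all samples and 0.109 in a fit of the 6 samples alone.

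B3GNT3, on chromosome 19 (17794828 to 17813576, plus strand), adds N-acetylglucosamine to lactosamine and mucin-type chains. With E1A it had 808, 800.0 and 756 normalized counts in HCT116 and 1357, 1224 and 1233 in HCT116 oxpl-R. The groups were well separated, with a log2FC of 0.69 ± 0.18 (edgeR adjusted p = 0.00637) that was called in 14 of 14 alternatives. Under oxaliplatin the line log2FC of B3GNT3 was 0.30 ± 0.17 (edgeR adjusted p = 0.235), and the samples, at 1628 to 1963 and 1964 to 2639, came close without overlapping. With E1A + oxaliplatin it was 0.31 ± 0.17 (edgeR adjusted p = 0.241), or 0.54 ± 0.17 and called without replicate 1 of HCT116 E1A + oxaliplatin (edgeR adjusted p = 0.0305).

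B4GALT4 and B4GALT1 both add the galactose of lactosamine, B4GALT1 being the broadly expressed member of the family, and they differed between the lines in opposite directions. B4GALT4, on chromosome 3 (119211732 to 119240946, minus strand), had 218, 408 and 354 normalized counts in HCT116 and 847, 902 and 747 in HCT116 oxpl-R under oxaliplatin. The log2FC was 1.35 ± 0.25 (edgeR adjusted p = 8.48e-05), or 1.336 ± 0.268 without replicate 1 and 1.35 ± 0.26 without replicate 3 of HCT116 oxpl-R oxaliplatin, and it was called in both. With E1A + oxaliplatin, 257, 527 and 469 stood against 877, 890.4 and 653, a log2FC of 0.95 ± 0.24 (edgeR adjusted p = 0.00501). With E1A alone, 588, 535 and 538 stood against 799, 1084 and 730.1, and the log2FC of 0.65 ± 0.24 was not called (edgeR adjusted p = 0.0693), although 5 of 14 alternatives called it. Across all conditions the parental samples of B4GALT4 reached 588 and the resistant ones began at 653.

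B4GALT1, on chromosome 9 (33104082 to 33167356, minus strand), had 4657, 4690.0 and 3881 normalized counts in HCT116 and 2638, 2864 and 2672 in HCT116 oxpl-R under oxaliplatin. It was lower in the resistant line by a log2FC of −0.69 ± 0.16 (edgeR adjusted p = 0.00105), or −0.67 ± 0.17 without replicate 1 and −0.75 ± 0.17 without replicate 3 of HCT116 oxpl-R oxaliplatin, and it was called in both. With E1A + oxaliplatin, 4502, 3750.4 and 3759.7 stood against 3039, 2517 and 2514, a log2FC of −0.57 ± 0.16 (edgeR adjusted p = 0.0085). Without replicate 2 of HCT116 oxpl-R E1A + oxaliplatin this second call was lost (edgeR adjusted p = 0.0546), and with limma on the second table the log2FC was −0.34 and not called (limma adjusted p = 0.199 and 0.21 with the pseudocounts 1 and 0.1). With E1A alone the log2FC of −0.35 ± 0.16 was not called (edgeR adjusted p = 0.153).

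The fucosyltransferases close the chains. FUT3, the Lewis enzyme, on chromosome 19 (5842888 to 5851471, minus strand), had 38.2, 27.5 and 27.1 normalized counts in untreated HCT116 and 148, 92.9 and 42.1 in untreated HCT116 oxpl-R, a log2FC of 1.60 ± 0.37 given without a test that was 1.09 ± 0.37 without replicate 1 of HCT116 oxpl-R control. The treated samples gave 0.96 ± 0.36 with oxaliplatin (edgeR adjusted p = 0.0521), 0.96 ± 0.36 with E1A (edgeR adjusted p = 0.0727) and 0.93 ± 0.37 with both (edgeR adjusted p = 0.0756), none of them called, although the first passed without replicate 3 of HCT116 oxpl-R oxaliplatin (edgeR adjusted p = 0.0466) and the second without replicate 3 of HCT116 oxpl-R E1A (edgeR adjusted p = 0.0499). The treated groups overlapped in no pair, with parental samples of 21.5 to 52.8 and resistant samples of 49.3 to 101. FUT3 has the close paralogs FUT5 and FUT6, between which reads can be split, and these were listed at no more than 0.0323 and 0.231 CPM in any sample.

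FUT2, the secretor enzyme, and FUT1, which makes the H antigen on other precursor chains, are neighbours on chromosome 19 (48695971 to 48705951, plus strand, and 48748011 to 48755390, minus strand). FUT2 had a line log2FC of −0.50 ± 0.20 under oxaliplatin (edgeR adjusted p = 0.0648) and −0.53 ± 0.20 with E1A + oxaliplatin (edgeR adjusted p = 0.0589). Neither was called, and 8 of 15 and 6 of 14 alternatives called them. The first passed without replicate 3 of HCT116 oxaliplatin or of HCT116 oxpl-R oxaliplatin (edgeR adjusted p = 0.0128 and 0.046), and the second without replicate 2 or 3 of HCT116 E1A + oxaliplatin (edgeR adjusted p = 0.0374 and 0.0262). In the untreated cells the FUT2 difference pointed the other way, with 306, 290.0 and 295 normalized counts in HCT116 and 427, 416 and 379 in HCT116 oxpl-R. FUT1 had line log2FCs between −0.05 and 0.07 in the 3 treated comparisons (edgeR adjusted p between 0.957 and 1), and its samples overlapped in each.

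Whole chromosomes differed between the lines, to an extent that also depended on the condition. The median line log2FC of the expressed genes of each member's chromosome was first taken in the oxaliplatin-treated samples. On chromosome 22 the median of 272 genes was −0.14, beside 1.95 for A4GALT, and on chromosome 21 the median of 106 genes was 0.59, beside 2.60 for B3GALT5. On chromosome 3, which carries B4GALT4 and B3GNT5, the median of 633 genes was 0.70, beside 1.35 and 1.16, so 78.5% and 69.7% of its expressed genes had a smaller log2FC. On chromosome 9 the median of 447 genes was 0.19, beside −0.69 for B4GALT1, and on chromosome 2 that of 765 genes was −0.06, beside 0.66 for B3GNT2. On chromosome 19, with a median of −0.30 over 702 genes, B3GNT3 had 0.30, FUT1 −0.05, FUT2 −0.50 and FUT3 0.96. In the untreated samples the medians were −0.07 on chromosome 22, 0.29 on chromosome 21 and 0.41 on chromosome 3. They were 0.12 on chromosome 9, −0.29 on chromosome 2 and 0.096 on chromosome 19. The oxaliplatin medians are therefore not fixed differences between the chromosomes of the lines. The part of gene copy number in the medians or in the members' levels was not tested.

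With oxaliplatin against untreated cells, 7 of 10 members were called in HCT116, 6 higher and 1 lower, beside 17.4% of all genes tested (8.74% higher and 8.61% lower), and 1 of 10 in HCT116 oxpl-R beside 6.11%. In HCT116 9 members had no overlap between treated and untreated samples, beside 33% of genes. In the presence of E1A the counts were 1 of 10 in HCT116 beside 8.09% and 0 of 10 in HCT116 oxpl-R beside 2.8%. For this last comparison edgeR had 1 member at an unadjusted p below 0.05, and DESeq2 and limma called 0. The 2.8% is of edgeR calls at the adjusted threshold. The first 2 comparisons use the untreated samples that also entered the contrast known when the members were proposed, whereas those with E1A do not. Oxaliplatin raised 7 of 8 p53 targets in HCT116 and 8 of 8 in HCT116 oxpl-R, and 4 of 6 epithelial markers (KRT8, KRT18, KRT19 and CLDN4) rose with it in both lines. The other 2 were not called, EPCAM with log2FCs of −0.07 and −0.26 and CDH1 with 0.32 and 0.23 in HCT116 and HCT116 oxpl-R. The part of these changes in the members' levels was not tested.

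B3GNT3 was the member that rose with oxaliplatin in both lines. In HCT116 it went from 809.7, 792 and 863 normalized counts to 1929, 1628 and 1963, with no overlap, a log2FC of 1.16 ± 0.18 (edgeR adjusted p = 3.09e-05). In HCT116 oxpl-R it went from 1432, 1207 and 1519 to 2639, 2208 and 1964, a log2FC of 0.71 ± 0.17 (edgeR adjusted p = 0.00898). The second call was lost without replicate 2 of HCT116 oxpl-R control (edgeR adjusted p = 0.108) and without replicate 1 of HCT116 oxpl-R oxaliplatin (edgeR adjusted p = 0.0584), and it was 0.80 ± 0.19 and called without replicate 3 of that group. The log2FC was at least 0.59 in each of 14 alternatives. With E1A present, B3GNT3 rose in HCT116 from 808, 800.0 and 756 to 1733, 1109 and 1202 (log2FC 0.77 ± 0.18, edgeR adjusted p = 0.00501). In HCT116 oxpl-R with E1A the log2FC was 0.40 ± 0.17 (edgeR adjusted p = 0.323). FUT2 had 0.57 ± 0.20 for the same comparison in HCT116 (edgeR adjusted p = 0.0747) and passed without replicate 3 of HCT116 E1A + oxaliplatin (edgeR adjusted p = 0.0428).

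FUT2 rose in HCT116 from 306, 290.0 and 295 normalized counts to 639.9, 489 and 412 (log2FC 0.79 ± 0.20, edgeR adjusted p = 0.0058) and, like B3GNT3, was called in each of 14 alternatives. In HCT116 oxpl-R it had 427, 416 and 379 without and 320.1, 382 and 391 with oxaliplatin. These groups overlapped, with a log2FC of −0.16 ± 0.20 (edgeR adjusted p = 0.781). The difference between the 2 responses was −0.95 ± 0.28 and did not pass the test of the interaction term (edgeR adjusted p = 0.059), while 8 of 20 alternatives passed it, with adjusted p from 0.0015 to 0.158. One of these 8 left out replicate 3 of HCT116 oxaliplatin (log2FC −1.13 ± 0.28, edgeR adjusted p = 0.0136).

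B3GNT5 fell with oxaliplatin in HCT116, from 1654, 1637 and 1307 normalized counts to 449, 603 and 881, a log2FC of −1.25 ± 0.30 (edgeR adjusted p = 0.00436). The call was lost without replicate 1 of HCT116 oxaliplatin, the lowest sample (log2FC −0.95 ± 0.33, edgeR adjusted p = 0.0686). In HCT116 oxpl-R the log2FC was −0.04 ± 0.30 (edgeR adjusted p = 1), and the difference between the responses, 1.21 ± 0.42, was not called (edgeR adjusted p = 0.128). It was called, however, without replicate 3 of HCT116 oxaliplatin (edgeR adjusted p = 0.0387) and with the replicate number as a block (edgeR adjusted p = 0.0327).

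Increases in HCT116 were also called for A4GALT (log2FC 0.65 ± 0.23, edgeR adjusted p = 0.0423), B4GALT1 (0.56 ± 0.16, edgeR adjusted p = 0.0133), B3GALT5 (1.00 ± 0.33, edgeR adjusted p = 0.0317) and FUT1 (0.60 ± 0.20, edgeR adjusted p = 0.0406). B4GALT1 went from 2769, 2952 and 3279 normalized counts to 4657, 4690.0 and 3881, and FUT1 from 517, 557 and 629.5 to 849.7, 808 and 920.1, both without overlap. None of these 4 calls held in every alternative. Without replicate 1 of HCT116 control the adjusted p of A4GALT, B4GALT1, B3GALT5 and FUT1 was 0.149, 0.079, 0.149 and 0.158, so that only 3 members were called, and without replicate 2 of HCT116 control or replicate 1 of HCT116 oxaliplatin 4 were called. B3GALT5 was also lost without replicate 3 of either group (edgeR adjusted p = 0.0607 and 0.0994). B4GALT4 had a log2FC of −0.68 ± 0.24 with an edgeR adjusted p of 0.05, not below the threshold, and was called in 6 of 14 alternatives, among them the one without replicate 2 of HCT116 oxaliplatin (edgeR adjusted p = 0.0431).

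**Figure D3:**
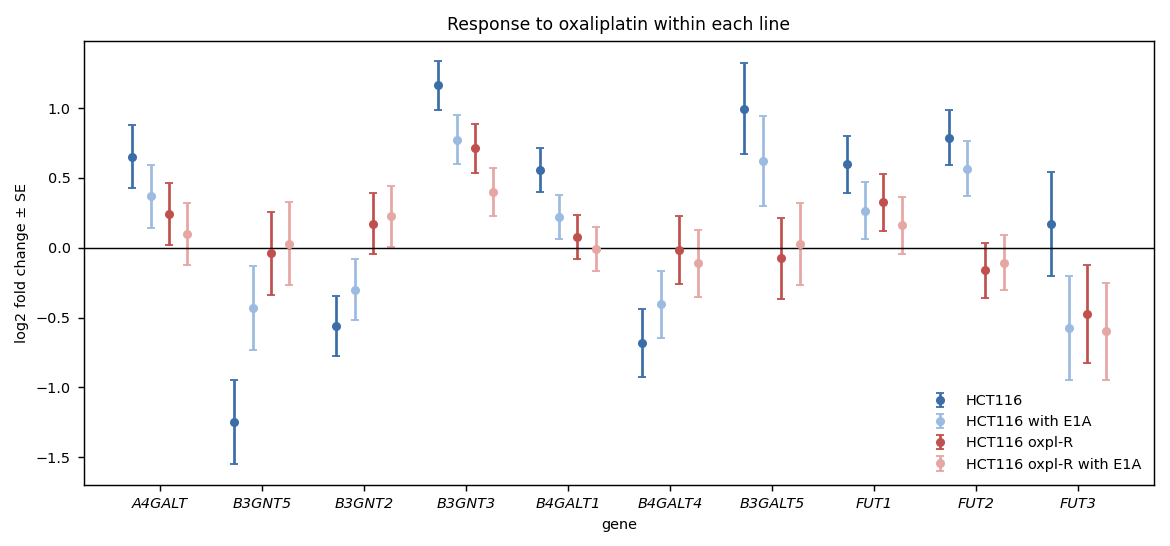
Log2 fold change (± SE) of each member with oxaliplatin against without, in HCT116 (dark blue), HCT116 with E1A (light blue), HCT116 oxpl-R (dark red) and HCT116 oxpl-R with E1A (light red), n = 3 per group. B3GNT3 lies above 0 in all 4, at 1.16, 0.77, 0.71 and 0.40, and B3GNT5 ranges from −1.25 in HCT116 to 0.03 in HCT116 oxpl-R with E1A.

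In none of the 10 members did the response to oxaliplatin pass the test of a difference between the lines, beside 2.78% of all genes tested. edgeR had 5 members at an unadjusted p below 0.05 (B3GNT5, B3GNT2, B4GALT1, B3GALT5 and FUT2), DESeq2 called 2 and limma called 1. The 2.78% is of edgeR calls at the adjusted threshold, and no share of all genes is given for these other counts. For B3GALT5 the difference was −1.07 ± 0.44 (edgeR adjusted p = 0.211). A response that passed in HCT116 and not in HCT116 oxpl-R is therefore not shown to differ. The test between the lines also uses the untreated samples of the contrast known when the members were proposed.

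Doxycycline, given to induce E1A, was followed by no called member in any of 4 comparisons. Those without oxaliplatin use the untreated samples of the contrast known when the members were proposed, and those under oxaliplatin do not. In HCT116 and HCT116 oxpl-R without oxaliplatin, 0 of 10 were called by edgeR, DESeq2 and limma, beside 0.432% and 0.226% of all genes, with 0 and 1 (B3GNT2) at an unadjusted p below 0.05. A fit of the 6 HCT116 samples alone called B3GNT5 (log2FC −0.65 ± 0.13) and B3GNT2 (−0.45 ± 0.11). B3GNT5 there went from 1654, 1637 and 1307 normalized counts to 1026, 853 and 1139, without overlap. Under oxaliplatin, 0 of 10 were called by edgeR, DESeq2 and limma in each line, beside 0.0874% and 1.39%, with 1 (B3GNT3) and 2 (A4GALT and B3GNT3) at an unadjusted p below 0.05. The shares are of edgeR calls at the adjusted threshold, and none is given at an unadjusted p or for the other tools. E2F targets, read as a check of the condition, rose in 9 of 12 with doxycycline under oxaliplatin in HCT116 oxpl-R, and 0 of 12 were called in each of the other 3 doxycycline comparisons.

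A4GALT in HCT116 oxpl-R had 5947, 3591 and 2088 normalized counts with oxaliplatin and 2743, 2659 and 2521 with E1A + oxaliplatin. The log2FC was −0.55 ± 0.22 (edgeR adjusted p = 0.35), and without replicate 3 of HCT116 oxpl-R oxaliplatin, the sample at 2088, it was −0.86 ± 0.19 and called (edgeR adjusted p = 0.0132). The E1A response did not differ between the lines in a called way for any member beside 0.0103% of genes, with 1 member (A4GALT) at an unadjusted p below 0.05 in edgeR and 0 called by DESeq2 or limma. The effects of oxaliplatin and E1A did not depart from additivity in a called way for any member, beside 0.0103% of genes in HCT116 and 0.036% in HCT116 oxpl-R, with 0 at an unadjusted p below 0.05 and 0 called by DESeq2 or limma in each line. Both this test and that of the E1A response between the lines use the untreated samples of the contrast known beforehand. The shares are of edgeR calls, and none is given at an unadjusted p or for the other tools.

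Over all 24 samples A4GALT and B3GALT5 had the highest Pearson correlation of log2(CPM + 1) of any pair of members (0.960). This value includes the difference between the lines. The correlation of this pair within each line, not computed for the other pairs, was taken over 12 samples in 4 conditions. It used log2(normalized count + 1), another scale than the value over all samples, and was 0.778 in HCT116 and 0.559 in HCT116 oxpl-R. Over all 24 samples, where both lines contribute, genes with a profile like that of A4GALT among 11096 expressed genes included the homeobox gene HOXB6 (r = 0.970) and the integrin subunit ITGB7 (0.968). The 3 most like B3GALT5 were the transmembrane mucin MUC13 (0.978), HOXB6 (0.977) and the kallikrein KLK10 (0.975). For the other members the highest correlation ranged from 0.852 (FUT2 with NIBAN3) to 0.963 (B4GALT4 with CA13). These correlations describe the samples and carry no test.

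**Figure D4:**
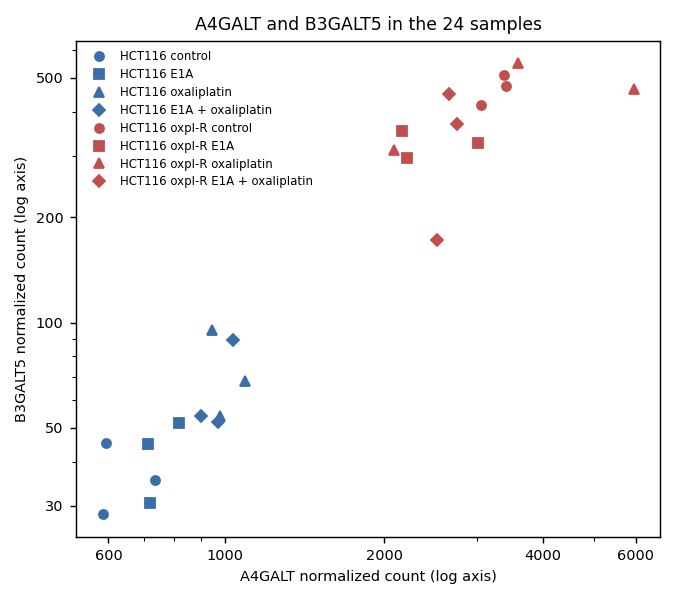
Normalized counts of A4GALT (x) and B3GALT5 (y) in the 24 samples on log axes; colours give the line (HCT116 blue, HCT116 oxpl-R red) and shapes the treatment. The lines form 2 clusters, with HCT116 at or below 1088 and 95.15 and HCT116 oxpl-R at or above 2088 and 172.2.

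Of the other genes of glycosphingolipid metabolism and sugar donor supply, 49 were tested. Under oxaliplatin 13 were higher and 8 lower in HCT116 oxpl-R than in HCT116, with a median log2FC of 0.0, as over all genes tested. The 49 include genes with hardly any counts. B3GALT2, FUT5 and FUT9 had 0 counts in every sample of both groups, and the fit gives such genes a log2FC of 0. Nothing is therefore read from these medians. Without replicate 1 of HCT116 oxpl-R oxaliplatin 13 were higher and 9 lower, and without replicate 3, 8 were higher and 8 lower. Of the genes named below, ST3GAL6, ST6GALNAC3 and FPGT were no longer called without replicate 3 (edgeR adjusted p = 0.0541, 0.0574 and 0.0935), and the others were called without either. In the lacto and neolacto list (2 higher and 4 lower of 16), the type 1 galactosyltransferase gene B3GALT1 was higher by 4.03 ± 0.65 (edgeR adjusted p = 1.37e-05), at levels of only 0.0662 and 1.19 CPM, and B4GALT2 was lower by −1.09 ± 0.18 (edgeR adjusted p = 1.86e-05). B3GNT4 was lower by −1.07 ± 0.24 and the sialyltransferase ST3GAL6 higher by 1.13 ± 0.32. In the globo list (3 higher and 0 lower of 8), B3GALNT1, which makes globoside from the product of A4GALT, was higher by 1.48 ± 0.32 (edgeR adjusted p = 0.000544).

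In the core and ganglio list (5 higher and 3 lower of 16), the GM2 activator gene GM2A was higher by 2.51 ± 0.15 (edgeR adjusted p = 1.54e-13) and GAL3ST1, the sulfatide synthase, lower by −2.99 ± 0.39 (edgeR adjusted p = 4.98e-07). B3GALT4, the GM1 synthase, was called lower, with 16, 21 and 10 counts in HCT116 and 3, 0 and 0 in HCT116 oxpl-R. ST6GALNAC3 was higher by 2.31 ± 0.71, at levels of only 0.201 CPM in HCT116 and 1.01 CPM in HCT116 oxpl-R. In the donor list (3 higher and 1 lower of 9), the Golgi UDP-N-acetylglucosamine transporter SLC35A3 was higher by 1.48 ± 0.32 (edgeR adjusted p = 0.000829) and FPGT, of the fucose salvage route, by 1.56 ± 0.44. ST3GAL6, ST6GALNAC3 and SLC35A3 were tested on the second table, in which 25.1% of genes were called under oxaliplatin, 12.2% with E1A and 18% with both. ABO, whose product caps H chains, was higher in HCT116 oxpl-R with E1A by 1.66 ± 0.31 (edgeR adjusted p = 0.000276) and with E1A + oxaliplatin by 1.44 ± 0.31 (edgeR adjusted p = 0.000792). With E1A 5 of the 49 genes were higher and 3 lower, and with E1A + oxaliplatin 10 were higher and 6 lower. Of those past an absolute log2FC of 1, GM2A (1.74 and 2.15) and SLC35A3 (1.12 and 1.05) were higher in both comparisons and GAL3ST1 (−1.70 and −2.25) and B3GALT4 (−2.40 and −2.70) lower in both, while B3GALT1 (2.11) and B3GALNT1 (1.14) were higher with E1A + oxaliplatin. UGCG, UGT8 and UAP1 were not analysed here.

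With oxaliplatin in HCT116, 8 of the 49 genes rose and 5 fell, with a median log2FC of 0.17 beside 0.58 for the members. B3GALT1 fell by 3.71 on the log2 scale, from a mean of 0.94 to 0.0662 CPM. ST6GALNAC3 fell by 4.04, from 3.41 to 0.201 CPM, so both falls ended at few counts, and FPGT fell by 1.30. GAL3ST1 rose by 1.32 ± 0.35 and ST6GALNAC5 by 1.51 ± 0.44. In the second table, which holds ST6GALNAC3 and ST6GALNAC5, 16.4% of genes were called. In HCT116 oxpl-R 2 rose, GM2A (0.54 ± 0.14) and PSAP (0.77 ± 0.18), which encodes the saposin precursor, and 0 fell, with a median of −0.02 beside 0.03 for the members. PSAP was not called without replicate 1 of HCT116 oxpl-R oxaliplatin (0.49 ± 0.16, edgeR adjusted p = 0.076). With E1A present, 1 of the 49 rose and 3 fell in HCT116, ST6GALNAC3 among the latter (−2.28 ± 0.63, edgeR adjusted p = 0.025), and 0 were called in HCT116 oxpl-R. In the test between the lines the responses of B3GALT1 (difference 3.44 ± 0.82, edgeR adjusted p = 0.0166), B4GALT2 (−0.93 ± 0.25, edgeR adjusted p = 0.036), ST6GALNAC3 (3.20 ± 0.93, edgeR adjusted p = 0.0499) and ST3GAL4 (−0.79 ± 0.23, edgeR adjusted p = 0.0499) were called, the last 2 in the second table, with 3.64% of its genes called. Without replicate 1 of HCT116 oxpl-R oxaliplatin B4GALT2 and ST3GAL4 were not called (edgeR adjusted p = 0.0522 and 0.084), and without replicate 3 B3GALT1 alone was (edgeR adjusted p = 0.0433). Doxycycline alone or under oxaliplatin was followed by 0 called genes of the 49 in each line.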

How the data were processed

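RNA was sequenced from 24 samples, 3 per group, and the groups were taken from the labels. The authors trimmed the reads with Trimmomatic, quantified them with Salmon 1.6.0 on GENCODE 47 transcripts of GRCh38, summed them per gene with tximport 1.34.0 and deposited estimated counts without normalization. The count table used here ends at SETP6, and a second table deposited by the authors as TPM holds length-scaled estimated counts, with column sums of 28004261 to 42613322, a unit other than its name. Genes after SETP6 were tested on that table. All values were rounded. All 19452 genes with a count were fitted in R 4.3.3 with edgeR 4.0.16 (TMM, quasi-likelihood test, 1 model of 8 groups) with Benjamini-Hochberg adjustment, and genes with an adjusted p below 0.05 were called. The step was tested on simulated data, where 61% of genes changed by a log2FC of 1 and 99% of those changed by 2 were recovered (simulated oxaliplatin response of HCT116, 18761 genes). The changed genes were drawn from well counted genes only, so this recovery does not cover genes with few counts. Of the calls 11.6% were false, more than the share that the adjusted threshold of 0.05 aims at. Alternatives were RLE factors, filterByExpr, DESeq2 1.42.0, limma 3.58.1 on log2(value + 1) and log2(value + 0.1), the second table, a replicate block, fits of only the groups compared and each sample left out, for the other pathway genes only replicates 1 and 3 of HCT116 oxpl-R oxaliplatin, chosen after seeing the data. The labels name separate biological replicates. Same-numbered samples deviated together, with all 3 correlations above 0.1, between the oxaliplatin-treated lines (0.141, 0.188 and 0.253) and between E1A and E1A + oxaliplatin in HCT116 oxpl-R (0.419, 0.481 and 0.529), where the pairing comes from these correlations. Between the untreated lines all 3 were negative (−0.0455, −0.213 and −0.316), so values as small as those of the oxaliplatin-treated lines do not establish a pairing. Positions are from GENCODE 44, joined by symbol.

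The members, the gene lists and the tests were chosen with earlier results of these data known, and the untreated line contrast is therefore a description. All 10 members are named, and other genes of the pathway lists were named where called with an absolute log2FC above 1. Of the marker, p53 and E2F lists, and of the genes most like each member, the text gives a part. ST3GAL4, GM2A and PSAP as rising in HCT116 oxpl-R, B4GALT2 in the interaction, EPCAM, CDH1 and the genes named at an unadjusted p were named after their values were seen, as they make up counts. One gene with a profile like that of A4GALT is not reported here. Plots were drawn with matplotlib 3.10.9 in Python 3.11.15.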

Additional observations from a re-analysis of the deposited data

How the results depend on the processing

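No alternative reversed the direction of a called difference, and A4GALT and B3GALT5 were called between the lines in every alternative of the 3 treated comparisons. The number of members called with E1A between the lines was 5 with filterByExpr, with only the groups compared and with DESeq2, against 3. For oxaliplatin in HCT116 oxpl-R it was 0 with only the groups compared and with both limma settings (log2(value + 1) and log2(value + 0.1)), against 1. For E1A + oxaliplatin against E1A in HCT116 it was 2 with RLE factors, filterByExpr and DESeq2, against 1, and for E1A against untreated HCT116 it was 2 with only the groups compared, against 0. For the interaction of line and oxaliplatin it was 1 with RLE factors, filterByExpr, edgeR on the second table and both limma settings, and 2 with DESeq2 and with the replicate block, against 0. The cause of these shifts was not tested. The share of all genes called under each setting is not given beside these counts or those that follow. Nothing particular to the members is read from the shifts.

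When 1 sample was left out, the count ranged from 3 to 8 for oxaliplatin in HCT116, from 4 to 6 between the lines under oxaliplatin, from 3 to 4 with E1A, from 3 to 5 with E1A + oxaliplatin, from 0 to 1 for oxaliplatin in HCT116 oxpl-R and for E1A + oxaliplatin against oxaliplatin in HCT116 oxpl-R, from 1 to 2 for E1A + oxaliplatin against E1A in HCT116, and from 0 to 2 for the interaction of line and oxaliplatin. The remaining group then has 2 samples, assumed to vary like the others.

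With the replicate number as a block, 9 members were called for oxaliplatin in HCT116 against 7, and 6 between the oxaliplatin-treated lines, or 5 in a fit of those groups alone, an alternative added after the data were seen. For oxaliplatin in HCT116, same-numbered samples deviated in opposite directions (r = −0.179, −0.119 and −0.266), so the block has no pairing to rest on there. In untreated cells the line log2FC of B3GALT5 was 4.42, 4.25 and 4.30 on the second table with edgeR and the limma settings, and that of FUT2 was 0.71 there with edgeR against 0.45. FUT3, with the lowest count of any member, had the largest SE among the members in all 16 comparisons.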
